A study of Homo sapiens with 5 samples.

Results

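Pre-mRNA splicing factor genes were examined for FOXO3A binding in 2 human cell lines labelled as acute myeloid leukemia. FOXO3A is a forkhead transcription factor that growth factor signalling through AKT keeps out of the nucleus. The genes were the protein-coding genes of the RefSeq table whose symbols start with SNRP, SF3A, SF3B, U2AF, PRPF, LSM, SRSF or HNRNP followed by a letter or a number, with SF3A2 left out. This rule gave 88 of the 19866 protein-coding genes. It reads names only, not measured values, but these genes were chosen with earlier results of these data known. Not all of them act in splicing. LSMEM1 and LSMEM2 encode membrane proteins that share only the letters LSM, and some LSM proteins act on mRNA decay or on histone pre-mRNA.

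Both lines, THP-1 and U-937, are long-established and resemble monocytes, and their labels give acute myeloid leukemia as the cell type. Neither line carried a treatment or a genetic change per the labels, and both were grown in the same medium. FOXO3A was mapped by CUT&Tag, in which an antibody tethers a transposase that cuts and tags nearby DNA, with the same antibody in all 5 libraries and no control library used here. Of 3 THP-1 libraries only replicate 1 had peaks (1282), and of 2 U-937 libraries only replicate 1 did (2272), the remaining libraries having 0. Of the THP-1 peaks, 1037 lay on chromosomes. Read depth is unknown, and no peak of either list was called in another library of its line. Each count therefore describes 1 deposited list, and an absent peak means only that none was called there.

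Splicing removes introns in a series of steps carried out by small nuclear ribonucleoprotein particles (snRNPs). Sm proteins, encoded by many SNRP genes, form a ring around most spliceosomal RNAs, and LSM proteins form the corresponding ring on U6 RNA. U2AF and the SF3A and SF3B complexes recognise the branch site and the 3' splice site, PRPF proteins build and remodel the catalytic machine, and SR proteins (SRSF) and hnRNPs (HNRNP) bind the transcript and steer the choice of exons.

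In U-937, 18 of the 88 genes (20.5%, exact 95% interval 12.6 to 30.4) had a peak summit within 1000 bp of the gene's start or end. Among the 19777 other protein-coding genes 1376 did, which is 6.96%. The peaks were spread unevenly over the families. HNRNP genes held 10 of the 18, SNRP and SRSF genes 3 each, and SF3B and U2AF 1 each. No PRPF or LSM gene had one. Neither did the 2 SF3A genes of the set, from which SF3A2 was left out, and their exact 95% interval reaches 84.2%. No peak served 2 of the 88 genes, so the 18 called genes stand for 18 peaks. No enrichment test was made, because the genes were chosen with earlier results of these data known, and the interval covers counting error only.

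**Figure D1:**
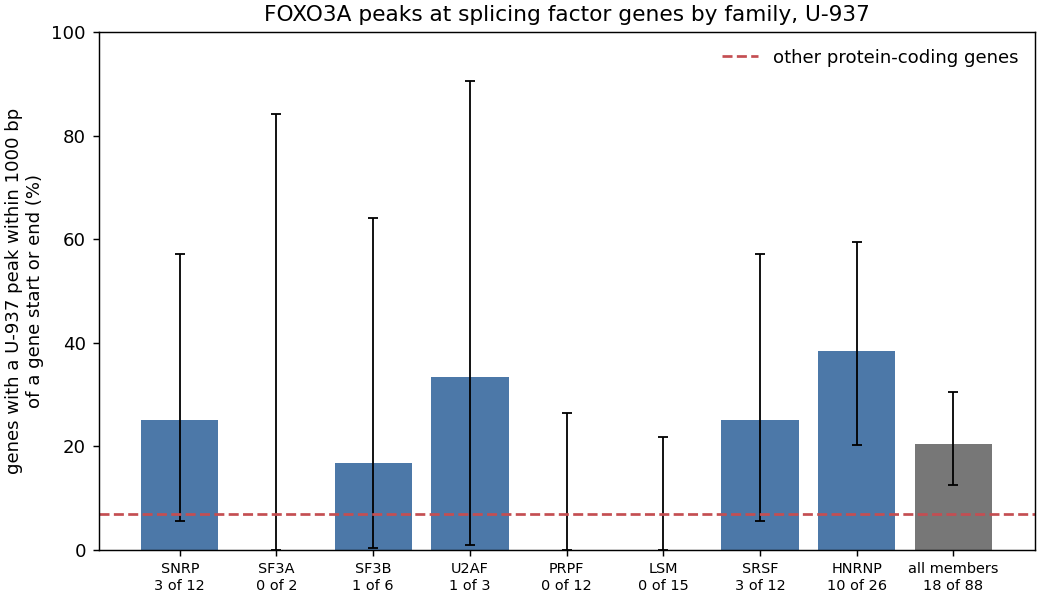
Share of genes (%) with a U-937 peak summit within 1000 bp of the gene start or end, for each family and for all 88 genes, with exact 95% intervals as error bars and the other protein-coding genes as a dashed line at 6.96%. The HNRNP bar, 10 of 26 genes, is the highest (interval 20.2 to 59.4%), whereas PRPF, LSM and SF3A have no called gene. SF3A stands for only 2 genes, as SF3A2 was left out. The intervals cover counting error only and are not a test of any family against the line.

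All 18 summits lay at gene starts rather than gene ends. The strand was known for 76 of the 88 genes, of which 18 (23.7%) had a peak at the start, against 7.17% of 15765 other genes. The 12 genes without a known strand, among them SRSF2 and HNRNPA1, had no boundary peak. Leaving them out raised the share from 20.5%. At the end the count was 0 of the 76 genes of known strand, which allows a share of up to 3.95%, against 0.438% of other genes. The summit was upstream of the start of the gene in 15 cases and inside the gene in 3, with a median of 195.5 bp upstream. Over 1138 pairs of other genes and peaks at starts, the median was 141 bp upstream and 70.2% of summits were upstream. These positions are those of promoters, for the splicing factor genes as for the others.

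**Figure D2:**
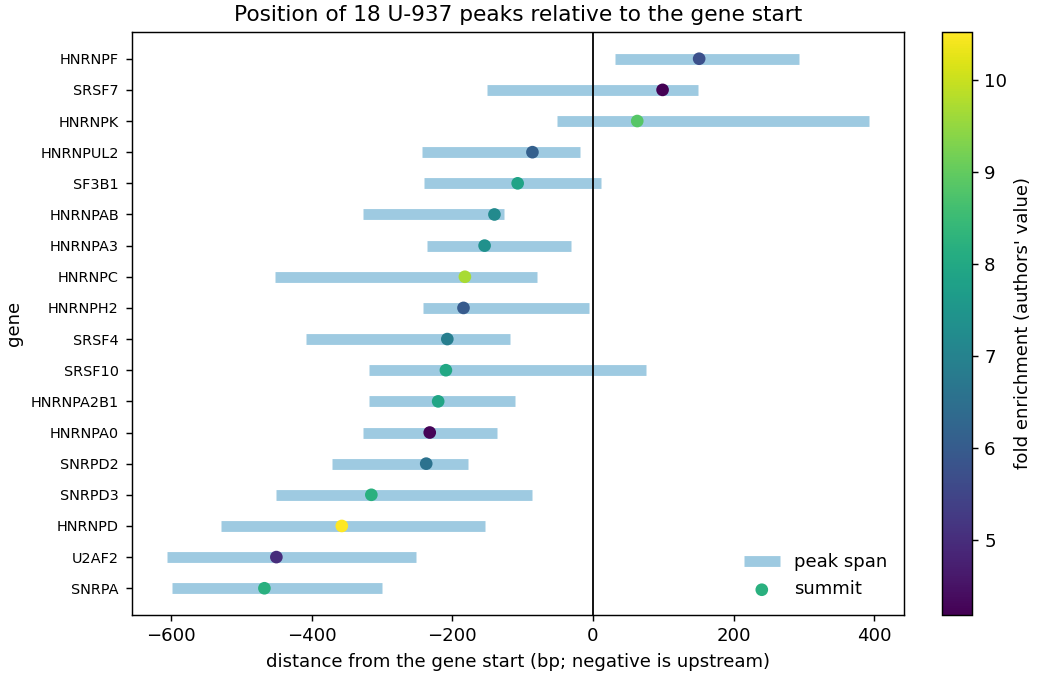
Position of the 18 U-937 peaks relative to the gene start (bp, negative upstream), with the peak as a bar and its summit as a point coloured by the authors' fold enrichment. Summits run from 467 bp upstream at SNRPA to 151 bp inside HNRNPF, and those of HNRNPK, SRSF7 and HNRNPF lie inside the gene.

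The promoters of the 4 strongest of these peaks whose summit fell in the 250 bases before the transcript start are shown, since they carry the called sites themselves. They come from the RefSeq promoter table (GRCh38.p14) and read 5' to 3' towards the gene, all from the minus strand, ending at the base before the start. HNRNPC is chr14:21269443-21269692, SRSF10 is chr1:23980328-23980577, HNRNPA2B1 is chr7:26200747-26200996 and SF3B1 is chr2:197435094-197435343. None of these stretches overlaps another gene of the table. Capitals mark the motifs found: CCAAT or its reverse complement ATTGG (the NF-Y box), GGGCGG (SP/KLF), CGCATGCGC (the reverse complement of the NRF1 motif) and CACGTG (E-box).
HNRNPC: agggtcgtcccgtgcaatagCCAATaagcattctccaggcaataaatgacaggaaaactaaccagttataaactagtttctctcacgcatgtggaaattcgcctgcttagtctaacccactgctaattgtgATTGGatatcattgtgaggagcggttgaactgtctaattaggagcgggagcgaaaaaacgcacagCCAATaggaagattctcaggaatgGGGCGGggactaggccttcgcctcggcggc
SRSF10: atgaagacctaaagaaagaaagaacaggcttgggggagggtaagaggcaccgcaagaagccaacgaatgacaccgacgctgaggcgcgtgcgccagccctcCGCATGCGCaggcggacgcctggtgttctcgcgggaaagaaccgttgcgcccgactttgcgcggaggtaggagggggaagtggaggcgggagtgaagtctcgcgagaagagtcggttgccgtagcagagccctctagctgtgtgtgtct
HNRNPA2B1: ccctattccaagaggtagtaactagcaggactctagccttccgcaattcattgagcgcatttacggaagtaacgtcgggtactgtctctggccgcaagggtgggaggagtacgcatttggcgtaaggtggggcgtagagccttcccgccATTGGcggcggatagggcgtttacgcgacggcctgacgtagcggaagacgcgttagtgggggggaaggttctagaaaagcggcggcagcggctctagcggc
SF3B1: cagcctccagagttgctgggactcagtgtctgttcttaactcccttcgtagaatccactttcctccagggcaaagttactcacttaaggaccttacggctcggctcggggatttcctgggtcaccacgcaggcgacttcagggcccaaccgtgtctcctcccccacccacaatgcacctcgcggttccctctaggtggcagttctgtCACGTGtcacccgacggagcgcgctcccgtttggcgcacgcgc

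The summit lay 182 bases before the start at HNRNPC, 209 at SRSF10, 220 at HNRNPA2B1 and 107 at SF3B1. At HNRNPC the nearest marked motif was the CCAAT box that begins 230 bases before the start, whose centre was 46 bp from the summit. The NRF1 motif of SRSF10 was centred 64 bp from the summit, the ATTGG of HNRNPA2B1 121 bp and the CACGTG of SF3B1 66 bp. The marked motifs differ between these promoters, and apart from the CCAAT box of HNRNPC and HNRNPA2B1 they share none of those searched.

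In all, 10 motifs were searched on both strands in 300-base promoters, from 250 bases before to 50 after the start, with 1 promoter per gene. Besides those of NF-Y, SP/KLF and the E-box spelled out above, they were TGTTTAC (forkhead, the FOXO core), TGTTTNC (a looser forkhead form that includes the first), CCGGAAG (ETS), GCGCATGCG (NRF1), TGACGTCA (CRE), AAGATGGCG (YY1) and TGANTCA (AP-1). Shares are given beside those of the 1183 promoters of other genes with a U-937 boundary peak and of all 15841 promoters. TGTTTAC was in 0 of the 76 promoters of splicing factor genes in the table, called or not, in 1.69% of other called promoters and in 2.67% of all. The count of 0 of 76 allows a share of up to 3.95%, above both of these. TGTTTNC was in 3 of the 18 called splicing factor promoters (HNRNPF, SRSF7 and U2AF2) and in 11 of the 58 without a peak. Its share was thus not higher in the called splicing factor promoters than in the uncalled ones. It was in 11.7% of other called promoters and in 14.7% of all. GGGCGG was in 15 of 18 (83.3%) and in 29 of the 58 splicing factor promoters without a peak, against 72.4% of other called promoters and 58.3% of all. CCAAT was in 10 of 18 (55.6%) and 24 of 58, against 50.4% and 36.4%. Both motifs were thus frequent in called promoters of other genes too. CACGTG was in 4 of 18 and 5 of 58, against 10.6% and 8.83%, and CCGGAAG in 5 of 18 and 17 of 58, against 18.8% and 14.1%. GCGCATGCG was in 1 of 18 and 2.76% of all, and TGACGTCA (2.56% of all), AAGATGGCG (2.69%) and TGANTCA (5.69%) were in 0 of 18. With only 18 promoters, a count of 0 is not set apart from these shares. The window did not reach the summits of SNRPA, U2AF2, HNRNPD, SNRPD3, HNRNPK and SRSF7, so the bases at those summits were not searched. A match describes letters in this window, not binding.

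Most splicing factor promoters were rich in CpG. At least 50% GC and an observed to expected CpG ratio of at least 0.6 were found in 64 of 76 (84.2%), against 63.0% of other genes. Within these CpG-rich promoters, 15 of 64 splicing factor genes (23.4%) had a U-937 boundary peak, and 10.5% of 9931 others. Outside them the counts were 3 of 12 and 2.45% of 5834. Those 3 missed the limits narrowly. HNRNPC and HNRNPH2 had 49.3% and 48.7% GC with ratios of 0.844 and 1.20, and SNRPD3 had 60.3% GC with a ratio of 0.538.

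Among the SNRP genes, 3 of 12 had a U-937 peak, and all 3 summits were shared with a neighbouring gene. SNRPA encodes the U1 snRNP protein that binds a stem loop of U1 RNA. Its peak, on chromosome 19 at 40750604 to 40750903, had a fold enrichment of 8.20 and a -log10 q of 8.04, both the authors' values. The summit lay 467 bp upstream of SNRPA and 259 bp from ACTMAP, so that the neighbour was nearer. SNRPD2 and SNRPD3 encode Sm ring proteins. The SNRPD2 peak, on chromosome 19 at 45692493 to 45692687, had a fold of 6.58 and a -log10 q of 5.23, and its summit was 237 bp upstream of SNRPD2 but 113 bp from QPCTL. The SNRPD3 peak, on chromosome 22 at 24555199 to 24555563, carried the same deposited fold as SNRPA, 8.20, with its summit 315 bp upstream of SNRPD3 and 559 bp from GUCD1. The other 9 genes, among them the Sm genes SNRPB, SNRPD1, SNRPE, SNRPF and SNRPG, had no peak within 1000 bp. Their nearest summits ranged from 32566 bp at SNRPG to 2328988 bp at SNRPN.

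Of the genes for branch site and 3' splice site recognition, SF3B1 and U2AF2 had a peak. SF3B1, the branch-site-binding subunit of the U2 snRNP that is often mutated in myeloid neoplasms, had its peak on chromosome 2 at 197435082 to 197435333. The fold was 7.87, the -log10 q 7.58 and the summit 107 bp upstream. U2AF2 encodes the large subunit of U2AF, which reads the polypyrimidine tract. Its peak on chromosome 19 at 55654429 to 55654783 was among the weaker ones, with a fold of 5.01, a -log10 q of 2.77 and the summit 450 bp upstream. U2AF1, which encodes the small subunit and is also mutated in myeloid disease, had its nearest summit 118702 bp away. U2AF1L4 had a summit 2969 bp upstream (fold 6.88), which lay 189 bp from LIN37 and 868 bp from PSENEN. The other 5 SF3B genes were 35091 bp (SF3B4) to 1528085 bp (SF3B5) from a summit, and SF3A3 and SF3A1 were 22606 and 235163 bp away.

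No gene of the PRPF or LSM families had a U-937 boundary peak. For the 12 PRPF genes the count of 0 allows a share of up to 25%, and for the 15 LSM genes up to 20%, so at these sizes neither is set apart from the 6.96% of other genes. PRPF31, a tri-snRNP assembly factor linked to retinitis pigmentosa, was nearest with 5685 bp, followed by PRPF3 with 10737 bp. PRPF8, which holds the catalytic core, was 31540 bp from a summit, and PRPF39 was farthest with 6535279 bp. LSM10, a U7 snRNP protein of histone pre-mRNA processing, was 3425 bp away, and LSM14B, a protein of translational repression, was 6438 bp away. LSMEM2 was at 11502 bp and LSMEM1 at 804097 bp.

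**Figure D3:**
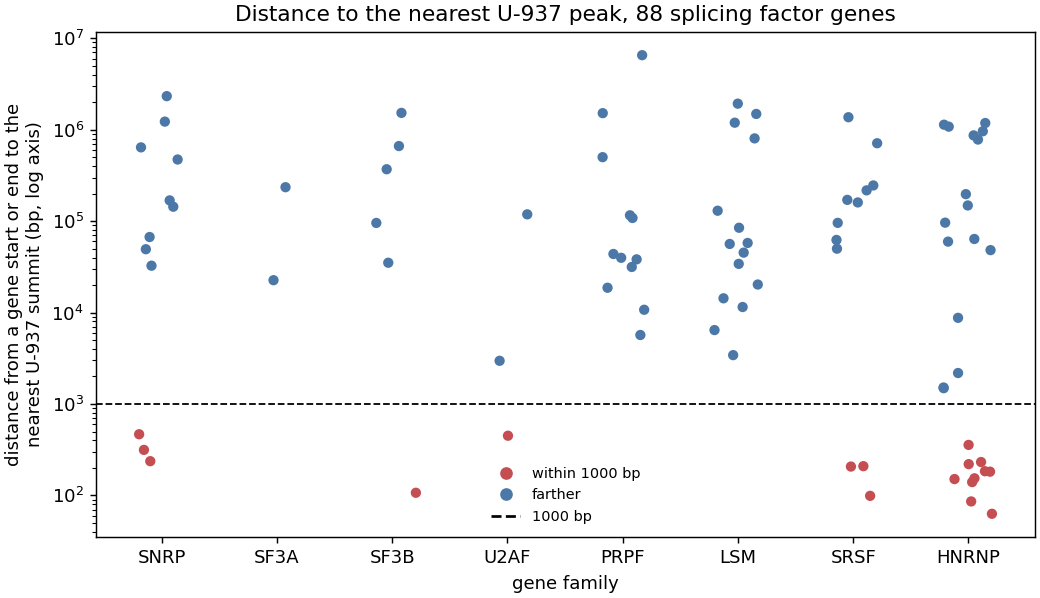
Distance (bp, log axis) from the start or end of each of the 88 genes to the nearest U-937 summit, by family, with 1 point per gene, genes within 1000 bp in red and the limit as a dashed line. Points below the line stand at 63 to 467 bp, and between the line and 3000 bp only HNRNPM, HNRNPUL1, HNRNPL and U2AF1L4 appear, with PRPF and LSM entirely above 3000 bp.

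Over all 88 genes, the median distance to the nearest U-937 summit was 57.0 kb, against 228 kb for other protein-coding genes. By family the median was 5.47 kb for HNRNP, 2.97 kb for the 3 U2AF genes, 41.7 kb for PRPF and 56.3 kb for LSM. It was 105 kb for SNRP, 128 kb for SRSF and 233 kb for SF3B. PRPF and LSM genes without boundary peaks therefore had medians below those of SNRP and SRSF genes, whose called members lay within 467 bp. The window was not decisive for the 18 genes, since no summit lay between 467 and 1490 bp of any of the 88 genes.

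Of the 12 SRSF genes, 3 had a U-937 peak at the start. SR proteins bind exonic enhancers, and many of them limit their own level by making unproductive transcripts. SRSF10, a regulator that represses splicing when dephosphorylated, had a peak on chromosome 1 at 23980252 to 23980646 with a fold of 7.99 and a -log10 q of 7.70. SRSF4, on chromosome 1 at 29182018 to 29182308, had a fold of 6.88, a -log10 q of 5.80 and its summit 207 bp upstream. SRSF7, on chromosome 2 at 38751344 to 38751645, had a fold of 4.19 and a -log10 q of 2.09, the lowest of the 18 on both. Its summit was 99 bp inside the gene span and 34 bp upstream of the nearest annotated transcript start. Close relatives had none: SRSF6, related to SRSF4, was 49993 bp from a summit, and SRSF3, related to SRSF7, was 170890 bp away. SRSF2, often mutated in myeloid neoplasms, was at 62312 bp and SRSF1 at 95777 bp.

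HNRNP genes had the most called members, 10 of 26 (38.5%, exact 95% interval 20.2 to 59.4). HnRNP proteins coat nascent transcripts and repress or activate exons. In the A/B group, HNRNPA2B1, a reader of RNA sorting signals, had a peak on chromosome 7 at 26200857 to 26201064 with a fold of 7.91. The CBX3 boundary was 477 bp from its summit, on the other side of the shared promoter. HNRNPA3 on chromosome 2 (177212558 to 177212763, summit 154 bp upstream) had a fold of 7.37. HNRNPAB on chromosome 5 (178204206 to 178204407, summit 140 bp upstream) had 7.20. HNRNPA0 on chromosome 5 (137754499 to 137754690, summit 232 bp upstream) had 4.26 and a -log10 q of 2.24. HNRNPA1, the best studied of the group, was 96256 bp from a summit, and its copies HNRNPA1L2 and HNRNPA1L3 were 8762 and 961725 bp away.

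The strongest of the 18 peaks were at HNRNPD and HNRNPC. HNRNPD encodes AUF1, which binds AU-rich elements of labile mRNAs. Its peak on chromosome 4 at 82374145 to 82374520 had a fold of 10.5 and a -log10 q of 12.6, and its fold ranked at percentile 95.6 of the list. The summit was 357 bp upstream and within 1000 bp of a boundary of the lncRNA HNRNPD-DT. The paralog HNRNPDL, on the same chromosome, was 48216 bp from a summit. HNRNPC encodes a protein that binds uridine tracts and keeps cryptic exons out. Its peak on chromosome 14 at 21269522 to 21269894 had a fold of 9.70, a -log10 q of 10.8 and a rank percentile of 92.1.

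HNRNPK, which binds cytidine-rich RNA, followed with a fold of 8.86 on chromosome 9 at 83980223 to 83980666. Its peak was 444 bp wide, the widest of the 18, with the summit 63 bp inside the gene and 193 bp from RMI1. HNRNPUL2 on chromosome 11 (62727475 to 62727700) had a fold of 6.11, its summit 86 bp upstream and 506 bp from TTC9C. HNRNPH2 on chromosome X (101407980 to 101408217) had a fold of 5.98, its summit 184 bp upstream and 113 bp from GLA, the alpha-galactosidase A gene. HNRNPF on chromosome 10 (43408893 to 43409154) had a fold of 5.73. The HNRNPF summit was 151 bp inside the gene span but 178 bp upstream of an annotated transcript start. HNRNPH2 and HNRNPF encode related proteins that bind guanine tracts, and their relatives HNRNPH1 and HNRNPH3 were 63819 and 780831 bp from a summit.

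The 16 HNRNP genes without a boundary peak included 3 with a peak inside the gene, and no other splicing factor gene had one. A summit inside the gene over 1000 bp from both ends was found in 3 of 88 genes (3.41%), close to the 3.14% of other genes. In THP-1 it was 2 of 88 (2.27%), against 0.865%. The 3 U-937 genes were HNRNPL, HNRNPUL1 and HNRNPM, all on chromosome 19. HNRNPL encodes a protein that binds CA repeats. Its U-937 peak at 38850016 to 38850655 had a fold of 10.5 and a -log10 q of 16.8, a higher -log10 q than any of the 18 boundary peaks. The HNRNPUL1 peak at 41263816 to 41264230 had a fold of 8.48, and the HNRNPM peak at 8487464 to 8487792 had 7.52 with its summit 1490 bp before the end of the gene.

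The HNRNPL and HNRNPUL1 peaks were also the only ones of these genes with a counterpart in THP-1. A THP-1 peak at 38850160 to 38850512 in HNRNPL, with a fold of 4.69 and a -log10 q of 3.37, overlapped the U-937 peak. Another at 41263894 to 41264188 in HNRNPUL1, with a fold of 4.16 and a -log10 q of 2.11, did likewise. Folds are not compared between the lines, as the background behind each list's fold is not stated. Within THP-1 these peaks ranked low, at percentiles of 18.5 and 10.2 by fold, and within U-937 high, at 95.5 and 84.8. They are 2 of the 25 THP-1 peaks that overlap a U-937 peak by at least 1 bp.

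In both genes the overlapping peaks stood just before an internal transcript start. RefSeq gives HNRNPL 2 starts in the promoter table, and the summits lay 178 bp (U-937) and 174 bp (THP-1) upstream of the nearer one, although 2183 and 2187 bp inside the gene span. HNRNPUL1 has 3 starts, and the summits lay 299 and 429 bp upstream of the nearest. The nearest listed start of HNRNPM was 42649 bp from its summit. Counted by annotated transcript starts, a choice made after these positions were seen, 20 of 76 splicing factor genes (26.3%) had a U-937 peak, against 7.66% of 15765 other genes. In THP-1 2 of 76 did (2.63%, exact 95% interval 0.320 to 9.18), against 0.216%.

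By gene start or end, no splicing factor gene had a THP-1 peak. The count of 0 of 88 allows a share of up to 3.41%, and 43 of the other 19777 genes had one, which is 0.217%. With so few THP-1 boundary peaks, 88 genes cannot show a share below that of other genes. The nearest THP-1 summit was 1386 bp away at HNRNPUL1 and 2187 bp at HNRNPL, and the next nearest were PRPF6 with 39175 bp and HNRNPR with 48309 bp. The median distance was 2248 kb, against 2389 kb for other genes.

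The splicing factor peaks were of ordinary strength for U-937 promoter peaks. The 18 folds ran from 4.19 to 10.5 with a median of 7.29, while the other 1092 boundary peaks had a median of 6.58 and ran from 2.89 to 15.3. Widths had a median of 276.5 bp against 252 bp. A -log10 q of at least 5 was reached by 12 of the 18 (66.7%) and by 54.9% of the others. Counted at that threshold, 12 of 88 splicing factor genes (13.6%) and 3.89% of other genes kept a peak.

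**Figure D4:**
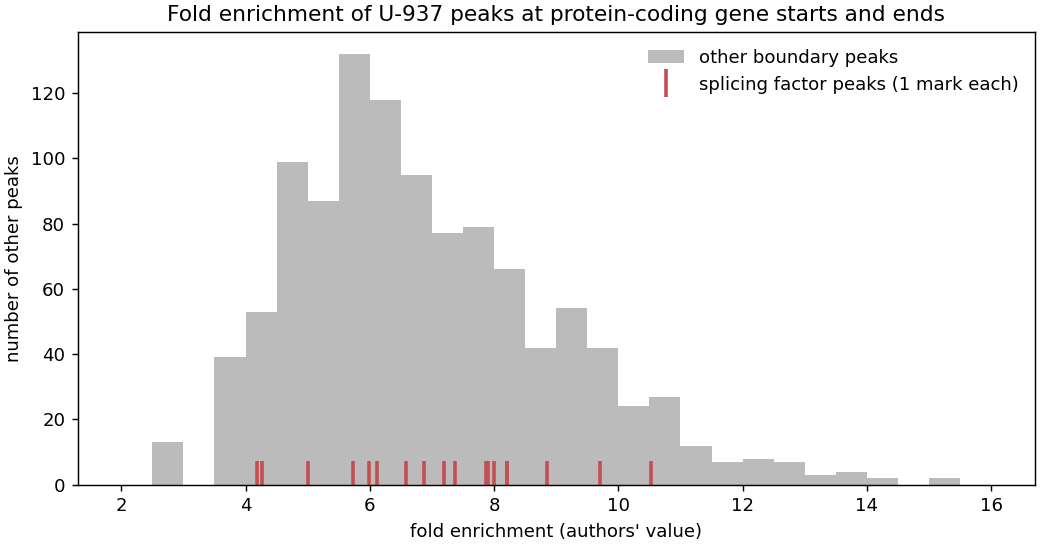
Distribution of the authors' fold enrichment over the 1092 other U-937 peaks at protein-coding gene starts and ends (grey, number of peaks per bin of width 0.5), with the 18 splicing factor peaks as red marks along the axis. The marks run from 4.19 to 10.5 within the grey distribution, whose highest value is 15.3.

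A neighbour shared 7 of the 18 peaks (38.9%), counting only protein-coding genes with a boundary within 1000 bp of the summit. Among the other boundary peaks 26.0% served at least 2 such genes. At SNRPA, SNRPD2 and HNRNPH2 the neighbour was the nearer gene, and with each peak given only to its nearest boundary 15 of 88 genes (17.0%) and 5.55% of other genes kept one. Chromosome 19, where boundary peaks were frequent, held 11 of the 88 genes. Of these SNRPA, SNRPD2 and U2AF2 had a peak, against 12.9% of the 1398 other genes there. Without that chromosome the counts were 15 of 77 (19.5%) and 6.50%. Without the HNRNP family they were 8 of 62 (12.9%), against the same 6.96%.

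Splicing genes outside these families also carried U-937 boundary peaks. The 113 such genes in 7 lists were drawn up from their known roles, with earlier results of these data known. Of them, 25 (22.1%, exact 95% interval 14.9 to 30.9) had a U-937 boundary peak, beside the 6.96% above, and 0 had one in THP-1. No enrichment test was made here either, and peaks shared with neighbours were not counted for these lists. Among snRNP proteins and U2 partners it was 6 of 22, led by SF1, the branch point binding protein (fold 10.8), SNRNP70 of the U1 snRNP (7.67), SNRNP25 (6.68) and the SF3B subunit gene PHF5A (6.60). RNA helicases had 4 of 12, DDX39B (12.4), AQR (8.80), DDX42 (6.68) and DHX38 (4.95). Prp19-associated proteins had 3 of 18, CDC5L (7.31), BUD31 (5.47) and XAB2 (4.72). The exon junction complex had 1 of 10, RNPS1 (6.30). The SMN complex and Sm assembly list had 2 of 13, the arginine methyltransferase gene PRMT5 (6.40) and STRAP (5.47). SR-related proteins and kinases had 2 of 14, SCAF1 (10.8) and SRRM1 (5.12). Other splicing regulators had 7 of 24, among them RBM39 (12.1), KHSRP (9.44) and TIA1 (9.17). The kinases that phosphorylate SR proteins, SRPK1, SRPK2, SRPK3 and CLK1 to CLK4, were not among the called genes.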

How the data were processed

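FOXO3A CUT&Tag was measured in 3 THP-1 and 2 U-937 libraries, grouped by sample title. Bowtie2, Picard and hg38 are named in the submitters' processing notes, without versions or roles. Which peak caller, settings and control were used is not given in the sources used here. The authors deposited 1 peak list per library. Each peak has a start, an end, a summit, a signal value, 2 significance values and an integer score. The signal value was read as a fold enrichment (a linear ratio), which could not be checked without knowing the peak caller. The authors deposited the significance as -log10 p and -log10 q, as read from the narrowPeak layout, whose columns carry no header. The score was not used in the results, and the deposited fold was used only within its own list.

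Gene spans came from RefSeq (GRCh38.p14) after leaving out 831 of 59792 genes, 779 out of the coordinate order of their chromosome and 52 mitochondrial or without a chromosome. Strand, transcript starts and promoters came from the RefSeq promoter table, which matched 76 of the 88 genes and 15841 protein-coding genes in all. A gene was called when a summit lay within 1000 bp of its start or end. Coordinates are counted from 1. Shares have exact Clopper-Pearson 95% intervals (scipy 1.17.1, Python 3.11.15), and a count of 0 has a limit of 3 counts. No p-value was computed. The assignment was tested on simulated peaks. Alternatives covered the window, thresholds, assignment and gene sets.

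The genes and lists were chosen with earlier results of these data known. Named were all called genes, those with a summit within 3000 bp or inside the gene, neighbours that share a peak, the LSMEM genes and up to 4 genes per list of other splicing genes. An item that this rule names is not reported here. Genes named beyond these, as relatives or examples without a peak, were chosen after their values were seen. Motifs of the promoters were searched as letters, and near-identical gene copies can share reads.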

Additional observations from a re-analysis of the deposited data

How the results depend on the processing

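The count of 18 U-937 genes ranged from 12 to 22 under the other thresholds, windows, assignments and gene sets tried, apart from leaving out the HNRNP family, a choice made after seeing the data, which left 8. Within 3000 bp the U-937 count was 22 of 88 (25%), against 8.14% of other genes. In the stronger part of the list by fold it was 12 of 88 (13.6%), against 4.15%. The THP-1 count of 0 became 2 of 88 (2.27%) within 3000 bp, where the share of other genes was not computed. With annotated transcript starts, also chosen after seeing the data, it became 2 of 76 (2.63%), against 0.216% of other genes. These 2 are HNRNPL and HNRNPUL1 in both cases. Other protein-coding genes with a U-937 boundary peak numbered 769 at -log10 q of at least 5 and 820 in the stronger part of the list by fold, in place of 1376, as fewer peaks entered. The peaks shared with a neighbour, 7 at 1000 bp, numbered 12 within 3000 bp, 3 without the HNRNP family and 0 when each peak went to its nearest boundary only, by construction. The median fold stayed between 7.29 and 7.95.

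No paired analysis was possible because no second library of a line had peaks, and for the same reason leaving out a replicate gave no value. Without read depth, a gene with no peak cannot be told from one below detection.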
